A study of Mus musculus with 12 samples.

Results

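Transcripts annotated as targets of nonsense-mediated decay (NMD) were followed in newly made and total RNA of mouse embryonic stem cells (mESCs). They were the exon and intron entries of the deposited table whose Ensembl transcript has the type nonsense_mediated_decay in GENCODE M1, which is annotated on the mm9 build. Of 3784 such transcripts in M1, 3577 from 2358 genes had an exon entry, out of 121429 transcripts in all, and 3575 had an intron entry. They were compared with 8004 protein_coding transcripts of the same genes. The biotype was found for 83847 of the 111672 Ensembl transcripts in the table, so isoforms added to the annotation after M1 are in neither set.

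The cells were DTCM23/49 XY mESCs, 1 line from 1 culture that was divided in 2 and passaged 8 times to give 2 biological replicates. All cells received 200 µM 4-thiouridine (4sU), a uridine analog that cells incorporate during transcription, for 15, 30 or 60 min, and no library came from untreated cells. RNA carrying 4sU was biotinylated and pulled down (labeled RNA) and sequenced beside total RNA, which gave 6 labeled and 6 total libraries. The values were treated as length-normalized abundances, a reading that no source used here states. Across 18963 protein-coding transcripts their mean had a Spearman rho of -0.08 with transcript length, and the comparison of levels between isoforms rests on this reading. The values sum to nearly the same total in every library, so differences between labeled and total RNA are relative to the library. Read numbers are given in the methods only as averages over libraries, so the depth of each library is unknown. Of 19 embryonic stem cell markers, 18 were found and all 18 had a summed protein-coding value of at least 20 in total RNA. Dppa5a was the most abundant of them, at 6766 ± 799 (SD, n = 6), and the list summed to between 25171 and 40877 per library. The 8 fibroblast or feeder markers summed to between 23.9 and 55.8, mostly Thy1, and Col3a1, Pdgfrb, Postn, Dcn and Lum were at 0. All 4 neuroectoderm markers found were at 20 or more in total RNA, led by Tubb3 at 240 ± 54, with Pax6 at 42.4 ± 41.8, Nes at 31.0 ± 4.1 and Neurod1 at 25.5 ± 7.0, and the list summed to between 203 and 459 per library. None of the endoderm, mesoderm or trophectoderm markers found reached 20. In bulk RNA, fewer cells of a type and less RNA per cell cannot be told apart.

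NMD is the pathway that removes mRNAs on which ribosomes stop too early. In mammals the usual signal is a stop codon well upstream of an exon-exon junction, because the exon junction complex that splicing leaves near each junction stays on the RNA past such a stop and recruits UPF and SMG proteins. Genes for splicing factors, among them SR proteins and hnRNPs, are known to make such isoforms from exons that carry a stop codon, and thereby limit their own output. The comparison asks whether such isoforms take another part of newly made RNA than of total RNA, and whether they differ in turnover from the coding transcripts of their genes.

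The stop codons set the NMD transcripts apart from the coding ones by annotation. Among 3268 NMD transcripts with a stop codon and a junction, the stop lay a median of 330 bases before the last junction, with a median of 3 junctions after it. More than 55 bases separated stop and last junction in 94.1% of them, against 0.503% of 6167 protein-coding transcripts of the same genes, whose stop lay a median of 124 bases past the last junction. In 2362 NMD transcripts the stop codon was not one of the protein-coding transcripts and lay in an exon overlapping a protein-coding exon. The overlap concerns the whole exon, so the stop itself can lie outside the protein-coding exons. In 591 the exon with the stop had no such overlap. In 306 the stop codon was shared with a protein-coding transcript, and 309 had no annotated stop. TGA made up 58.8% of the NMD stop codons and 52.8% of 6173 protein-coding ones. NMD transcripts had a median length of 1307 bases and protein-coding ones of 1908.

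The last 30 coding bases of 5 NMD transcripts described below, each with those of the most abundant protein-coding transcript of its gene that has a stop codon, show the different ends of the reading frames. They are written 5′ to 3′ from the GENCODE M1 transcript sequences, with the stop codon in capitals.
Sf1-009 (NMD): cagattacaagcctccagcaacacgtgTGA
Sf1-001 (protein-coding): agagtgaggactttccgcgcccattggTGA
Cnpy3-002 (NMD): aaatgcgaagggtatgtcggagaccttTGA
Cnpy3-001 (protein-coding): ctcccacacagcccccctgatgagctgTGA
Pppde2-002 (NMD): tccagccagatcggtctcctctcatcaTGA
Pppde2-001 (protein-coding): tctgtgggcagacccaatggccaaagcTAA
Ptbp1-017 (NMD): gaggcgtctacggtgatgtgcagcgggTGA
Ptbp1-001 (protein-coding): cgagtgtccttttccaagtccaccatcTAG
H2afz-008 (NMD): cctggagtacctcaccgcagaggtactTGA
H2afz-001 (protein-coding): gggaagaaaggacaacagaagactgttTAA

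In mm9, the stop codon of Sf1-009 lies at chr19:6371635-6371637 on the plus strand, in exon 4 of 5, and that of Sf1-001 at chr19:6376358-6376360, in exon 13 of 13. The stop codon of Cnpy3-002 lies at chr17:46874779-46874781 on the minus strand, in exon 2 of 4, against chr17:46873640-46873642, in exon 6 of 6, for Cnpy3-001. That of Pppde2-002 lies at chr15:81829812-81829814 on the minus strand, in exon 5 of 7 and outside the protein-coding exons, against chr15:81825182-81825184 for Pppde2-001. That of Ptbp1-017 lies at chr10:79325218-79325220 on the plus strand, in exon 5 of 7, against chr10:79326020-79326022, in exon 14 of 14, for Ptbp1-001. That of H2afz-008 lies at chr3:137528980-137528982 on the plus strand, in exon 4 of 5, against chr3:137529409-137529411 for H2afz-001.

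NMD isoforms were not rare in either fraction by the deposited values. Of the 3577 transcripts, 3315 had an exonic value in at least 1 library, 2644 had one in all 12 and 262 had none. A mean exonic value of at least 20 was reached by 1836 transcripts of 1240 genes, which were the ones tested. In 1277 genes the summed NMD and the summed protein-coding transcripts both reached a mean of 20, and there the NMD transcripts held a median of 33.3% of the summed abundance (quartiles 21.7% and 46.8%). This nearly equals their part of the annotated transcripts, which was also a median of 33.3% (quartiles 25% and 50%). Across the 1277 genes the percentages of abundance and of transcript number had a Spearman rho of 0.81, and 955 genes (74.8%) had both within 10 percentage points. Genes are not independent replicates, and both percentages rest on the same annotation. In the 148 genes with 1 NMD and 1 protein-coding transcript, the NMD transcript held a median of 48.0% (quartiles 41.0% and 54.1%) and was the larger in 62. How far this even division comes from the allotment of reads shared by isoforms was not tested.

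**Figure D1:**
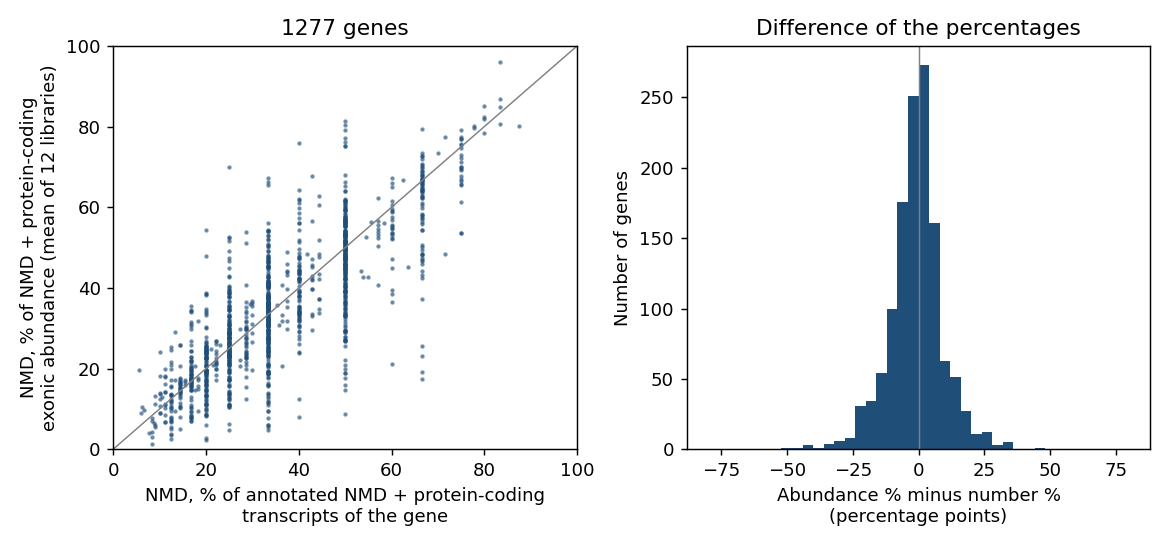
Left, each point is 1 of 1277 genes, with the NMD percentage of its annotated NMD and protein-coding transcripts on the x axis and the NMD percentage of their exonic abundance (mean of 12 libraries) on the y axis, and the line marks equality. Right, the number of genes by the difference of both percentages in percentage points, with 955 genes within 10 points of 0.

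Labeled and total RNA held nearly the same NMD percentage. The median over genes was 33.0% ± 0.206 (SD, n = 6) in labeled RNA, from 32.7% to 33.3%, and 33.0% ± 0.370 in total RNA, from 32.4% to 33.5%, and the ranges overlapped. Summed over the 1277 genes, the NMD percentage was 32.2% ± 0.145 in labeled and 31.3% ± 0.274 in total RNA. Here the lowest labeled library, at 32.1%, was above the highest total library, at 31.6%. On the mean of the libraries this difference was 0.973 percentage points. It was 0.126 points with the summed level of each gene held as in total RNA, and 0.847 points with the isoform percentages held as in total RNA, so most of it went with which genes were abundant. No single gene carried it, since leaving out Eif4a2, the gene with the largest influence, still gave 0.898 points. As a percentage of all exonic values in the library, NMD transcripts went the other way, at 2.24% ± 0.148 in labeled and 2.38% ± 0.110 in total RNA, with ranges that overlapped, since the highest labeled library, at 2.41%, was above the lowest total library, at 2.23%. This was not tested.

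**Figure D2:**
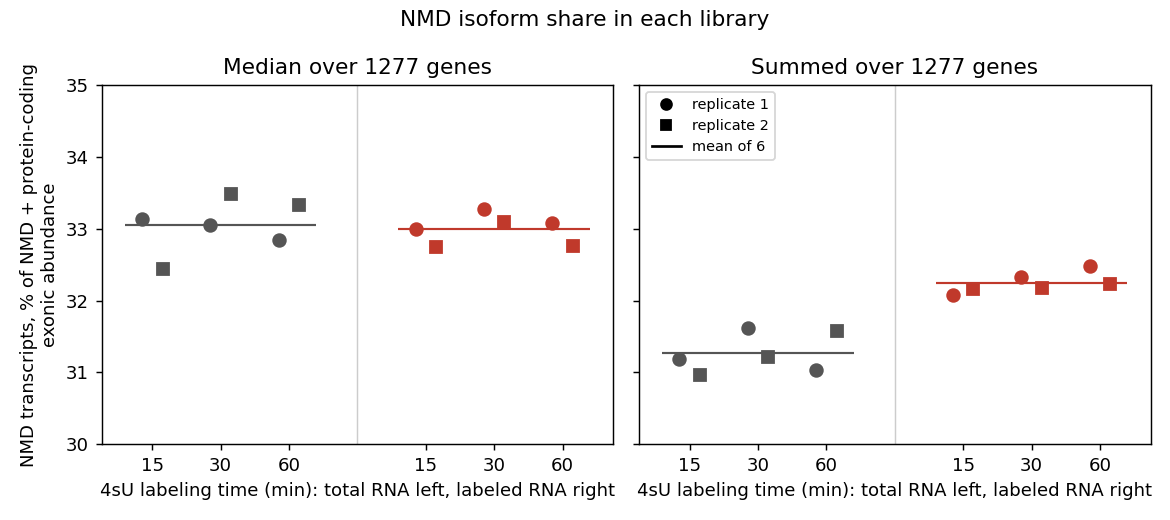
NMD percentage of the NMD and protein-coding exonic abundance of 1277 genes in each library, as the median over genes (left) and summed over genes (right), with the labeling time in minutes on the x axis, total RNA in grey, labeled RNA in red and a line at the mean of 6 libraries. The medians overlap, and the summed percentages of labeled RNA (32.1% to 32.5%) all lie above those of total RNA (31.0% to 31.6%).

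Before the comparisons of single transcripts, 1 property of the libraries bears on them. Deviations from the mean over libraries followed transcript length across 18963 protein-coding transcripts, with a Spearman rho from 0.00 to 0.29 in the total libraries and from -0.24 to -0.04 in the labeled libraries. The highest was total RNA at 15 min, replicate 1 (0.29), and the lowest were labeled RNA at 30 min, replicate 1 (-0.24) and at 60 min, replicate 2 (-0.23). Relative to short transcripts, long ones were thus lower in labeled than in total RNA. The part of length in the results below was not tested.

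The ratio of labeled to total RNA of an NMD isoform followed that of the coding transcripts of its gene. In the 1277 genes, the median over genes of the log2 ratio averaged -0.14 ± 0.24 (SD over 6 library pairs of the same time and replicate) for summed NMD transcripts and -0.15 ± 0.24 for summed protein-coding transcripts. The median within-gene difference, NMD minus protein-coding, was 0.003 and 0.015 at 15 min, 0.005 and -0.005 at 30 min, and 0.006 and -0.007 at 60 min in replicates 1 and 2. Its mean over the 6 pairs was 0.003 ± 0.008, so that its sign differed between pairs. Averaged over the pairs, 1116 genes (87.4%) had a difference within 0.25 on the log2 scale, and 5 were past 1. Across genes, the NMD and protein-coding mean ratios had a Pearson r of 0.85 and a Spearman rho of 0.87, with libraries and shared exons in common. Introns were examined in the same way. In 790 genes with intronic values for both, the median log2 ratio averaged 0.56 ± 0.59 for NMD and 0.57 ± 0.60 for protein-coding transcripts. At 15, 30 and 60 min, the protein-coding median was 1.32, 0.31 and 1.26 in replicate 1 and 0.05, 0.59 and -0.10 in replicate 2. Introns were thus not clearly higher in labeled RNA at 15 and 60 min of replicate 2. The bearing of this on the other comparisons was not tested. The intronic within-gene difference averaged -0.014 ± 0.013. It was below 0 in 5 of 6 pairs, from -0.031 at 15 min, replicate 1, to 0.003 at 15 min, replicate 2, and NMD was the higher in 42.3% to 50.5% of genes. With 20 added to the values before the logarithm in place of 1, the exonic difference became 0.012 and the intronic one -0.053.

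**Figure D3:**
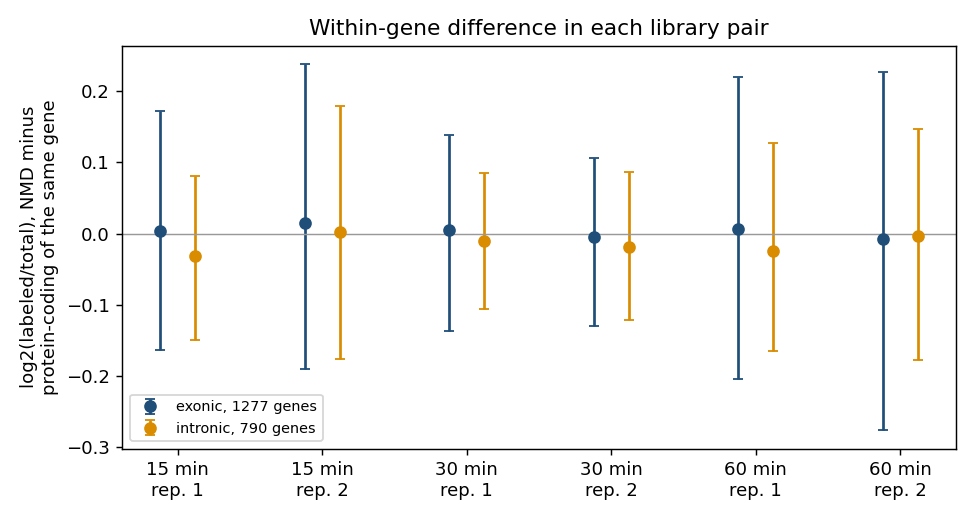
Within-gene difference of log2(labeled/total) between summed NMD and summed protein-coding transcripts (y axis) in each of 6 library pairs (x axis), as the median over genes with bars from the first to the third quartile, for exonic values of 1277 genes and intronic values of 790 genes. All exonic medians lie between -0.007 and 0.015.

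Degradation rates were estimated as the labeled exonic value per hour of labeling over the mature total value, taken as total exonic minus total intronic. No correction was made for decay of labeled RNA during labeling, which understates the rates of short-lived RNA. How far this moves the ratio of NMD to protein-coding rates was not tested. For 1226 of the 1277 genes a rate was obtained for both kinds of transcript, with a median of 2.62 per hour for NMD and 2.59 per hour for protein-coding transcripts. The ratio of both within a gene had a median of 1.02 (quartiles 0.918 and 1.15) and was above 1 in 689 genes (56.2%). Of the 1818 NMD transcripts tested for isoform balance, 832 had no base outside the exons of the coding transcripts, so that their values rest on junctions and on how shared reads were divided among isoforms, and the part of this in the ratio was not tested. At 15, 30 and 60 min the median ratio was 1.02, 1.00 and 1.00. In single library pairs it ranged from 0.986 at 60 min, replicate 2, to 1.03 at 15 min, replicate 2. The NMD rates themselves fell from a median of 4.54 per hour at 15 min to 2.12 at 30 min and 1.10 at 60 min. Since every library is scaled to the same total, labeled values do not grow with labeling time and such rates are relative.

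Single NMD transcripts were tested between labeled and total RNA by limma, on values to which 1 was added before the log2, in a model with a term for labeling time. P-values were adjusted by Benjamini-Hochberg over all 45537 transcripts tested. Of 1836 NMD transcripts, 46 were higher and 252 lower in labeled RNA (adjusted p under 0.05), or 2.51% and 13.7%. With the libraries scaled to the same median, 70 were higher and 270 lower, beside 3110 and 5916 of all transcripts. Among all transcripts tested 5.28% were higher and 12% lower, and among 4158 protein-coding transcripts of the same genes 65 were higher and 640 lower. The median log2 difference was -0.14 for NMD transcripts, -0.20 for those protein-coding transcripts and -0.09 for all. With the 6 pairs of libraries as a replicate block, 24 NMD transcripts were higher and 118 lower, against 9.82% of all transcripts in either direction. In 25 NMD transcripts all 6 labeled libraries were above all 6 total libraries and in 146 all were below, or 1.36% and 7.95%, beside 2.62% and 7.61% of all transcripts.

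Most NMD transcripts that were called had a coding transcript of the gene called the same way. Of the 252 NMD transcripts lower in labeled RNA, 214 (84.9%) had a protein-coding transcript of the gene that was also called lower, and of the 46 higher ones 29 (63.0%) had one called higher. Among the 1538 NMD transcripts that were not called, 213 (13.8%) had a coding transcript called lower and 39 (2.54%) one called higher. Isoforms of a gene share exons, reads and libraries, so these calls are not independent. None of the called ones had a protein-coding transcript called in the opposite direction. The NMD transcript with the largest fall was Kif2a-008, of a kinesin that shortens microtubules, and the one with the largest rise was Gemin4-002, of a component of the SMN complex. Both are named after their values were seen. Kif2a-008 had values from 404 to 542 in total and from 107 to 287 in labeled RNA, a log2 difference of -1.29 ± 0.19 (SE, limma, adjusted p = 0.0021). Gemin4-002 had values from 0 to 26.1 in total and from 54.9 to 113 in labeled RNA, and the groups did not overlap. It was 1 of 4 among the 46 higher ones that reached the mean of 20 only through labeled RNA, and 11 of the 252 lower ones reached it only through total RNA.

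When the isoform was compared with the other protein-coding transcripts of its gene in the same library, which takes out the level of the gene, few NMD transcripts were called. This isoform balance could be tested for 1818 NMD transcripts of 1223 genes. By limma over 25873 transcripts, 12 NMD transcripts took a larger part of their gene in labeled RNA and 7 a smaller part, or 0.66% and 0.385%, 1.05% in all. Among all transcripts tested 0.626% were higher and 0.259% lower, 0.885% in all. Among 3808 protein-coding transcripts of the same genes, 9 were higher and 8 lower. The median difference was -0.001 for NMD transcripts, -0.005 for these protein-coding transcripts and 0.01 for all transcripts. With all other transcripts of the gene as the reference in place of the coding ones, the split of the calls turned, with 7 NMD transcripts higher and 11 lower (median -0.03), beside 153 higher and 134 lower of 27655 transcripts in all (median -0.01), and 10 of these 18 were also called against the coding reference. Unadjusted p-values under 0.05 were found for 330 NMD transcripts (18.2%), beside 19.3% of all transcripts. With the replicate block, 1 NMD transcript was called, Cnpy3-002, beside 0.0541% of all transcripts. The groups of 6 did not overlap for 49 NMD transcripts in each direction, or 2.7% each, beside 2.95% above and 2.3% below among all transcripts. The calls also depended on single libraries, among NMD as among all transcripts. Leaving out labeled RNA at 30 min, replicate 2, left 0 NMD calls beside 6 of all 25873 transcripts (0.0232%), while leaving out labeled RNA at 15 min, replicate 2, gave 35 (1.93%) beside 570 (2.20%).

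The clearest of the higher ones by p-value was Pppde2-002, an isoform of a deSUMOylating isopeptidase. It made up 51.5% to 54.8% (median 53.5%) of itself and the coding transcripts in total RNA and 59.2% to 62.6% (median 60.3%) in labeled RNA, without overlap. Its balance rose by 0.42 ± 0.05 on the log2 scale (SE, limma, adjusted p = 0.012, and 0.077 against all other transcripts of the gene). Its own value did not pass the test, at 38.1 to 56.3 in total and 33.5 to 45.9 in labeled RNA, while the coding transcripts summed to 41.7 ± 4.9 in total and 25.4 ± 3.2 in labeled RNA (mean ± SD, n = 6 each, described without a test).

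Sf1-009 comes from the gene of the splicing factor that binds the branch point. It made up 4.12% to 4.76% (median 4.46%) in total RNA and 5.28% to 7.74% (median 6.41%) in labeled RNA, a log2 balance of 0.56 ± 0.10 (limma, adjusted p = 0.045). All labeled libraries were above all total libraries. Snd1-002, of a Tudor domain nuclease, rose from a median of 15.7% to 24.4%, a log2 balance of 0.72 ± 0.12, although its lowest labeled library, at 17.5%, lay within the range of total RNA. The strongest rise among the named transcripts was that of Pqlc3-002, from a median of 15.0% to 28.8% (log2 1.18 ± 0.22, limma adjusted p = 0.045). Its values were low, from 8.39 to 16.9 in total and from 18.5 to 46.7 in labeled RNA, and it reached the mean of 20 needed for testing only through labeled RNA, which favors a rise. Mesdc2-003, of a chaperone for LDL receptor family proteins, rose from a median of 6.79% to 11.8%, and it too reached the mean of 20 only through labeled RNA. Asap2-003, of an Arf GTPase-activating protein, rose from 7.89% to 11.5%. Slc2a3-003, of the glucose transporter GLUT3, rose from 22.0% to 26.1% and Capn7-002, of a calpain protease, from 51.9% to 58.1%. Both were without overlap between the groups. A rise in percentage need not be a rise of the transcript itself. The log2 level difference was -0.26 for Sf1-009, -0.01 for Snd1-002, -0.22 for Slc2a3-003, -0.13 for Capn7-002 and 0.19 for Asap2-003. None of these passed for level, while Pqlc3-002 (1.27) and Mesdc2-003 (0.78) were called higher.

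Among the lower ones, Cnpy3-002 comes from the gene of an endoplasmic reticulum chaperone for Toll-like receptors. It held 37.5% to 45.6% (median 41.8%) in total and 31.0% to 36.0% (median 33.7%) in labeled RNA, without overlap, and its balance fell by 0.50 ± 0.08 on the log2 scale (limma, adjusted p = 0.032, and 0.038 with the replicate block). Fam53a-003 went from a median of 19.6% to 13.5% (-0.70 ± 0.10). Rrp7a-003, of a factor in ribosomal RNA processing, went from 63.6% to 44.0% (-1.08 ± 0.20), with ranges that overlapped. Bcas2-002, of a subunit of the Prp19 splicing complex, went from 52.7% to 48.4%, and C330019G07Rik-004 from 38.6% to 30.8%. The smallest called changes were those of Phf23-003, of a PHD finger protein, from 34.8% to 30.6%, and of Kpna1-004, of an importin alpha, from 28.8% to 26.5%. Against all other transcripts of the gene, Sf1-009, Pppde2-002, Slc2a3-003, Bcas2-002 and Kpna1-004 did not pass, with limma adjusted p from 0.059 to 0.22, and the other 10 did. Except for Cnpy3-002, none of the 15 transcripts named for isoform balance passed with the replicate block, where adjusted p ranged from 0.072 to 0.14.

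**Figure D4:**
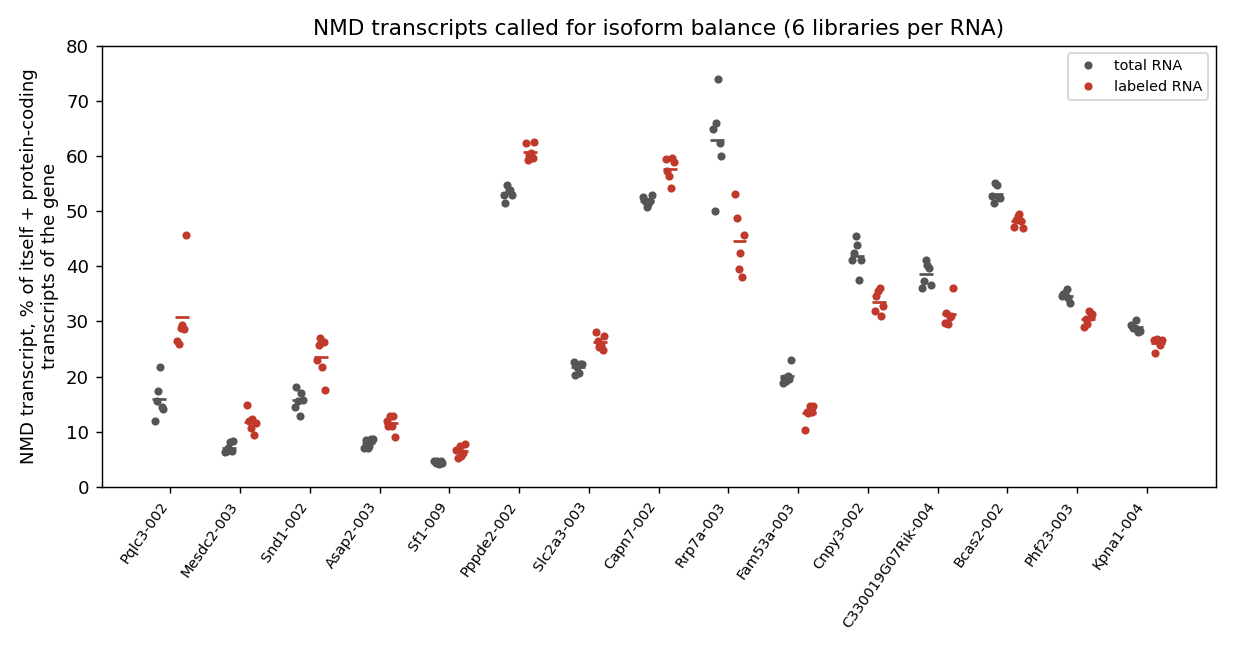
Percentage that each NMD transcript makes up of itself and the other protein-coding transcripts of its gene (y axis) in 6 total libraries (grey) and 6 labeled libraries (red), with lines at the means, for the 8 largest rises and the 7 falls among transcripts called for isoform balance. Most groups do not overlap, and those of Rrp7a-003, Snd1-002 and C330019G07Rik-004 do.

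The balance was also set against the sequence that an isoform does not share with coding transcripts. Such bases and the junctions are among what can tell isoforms apart. Of the 1818 NMD transcripts, 832 had no base outside the exons of the other protein-coding transcripts, and their median log2 balance was -0.01. It was -0.003 for 523 transcripts with up to 10% and -0.01 for 259 with 10% to 25% of such bases. For 204 transcripts with over 25% it was 0.09 (quartiles -0.08 and 0.21), with 64.2% above 0, 4 called higher and 0 called lower, beside 0.626% higher and 0.259% lower of all transcripts tested. In single library pairs this median ranged from 0.009 to 0.173 and was above 0 in all 6, while that of the 832 ranged from -0.036 to 0.024. Protein-coding transcripts with over 25% of such bases had a median of 0.03 (n = 2702), with 21 called higher and 11 lower, and retained_intron transcripts, which keep an intron in the annotation, of 0.14 (n = 3438), with 72 higher and 0 lower. The difference between these sets was not tested. Pqlc3-002 (81.1%), Asap2-003 (79.2%), Snd1-002 (42.9%) and Mesdc2-003 (36.0%) were the 4 called NMD transcripts of this kind. Pqlc3-002 and Mesdc2-003 reached the mean of 20 only through labeled RNA. In the 189 of the 204 whose mean was at least 20 in labeled and in total RNA, the median was 0.08, 62.4% were above 0, and 2 were called higher and 0 lower.

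**Figure D5:**
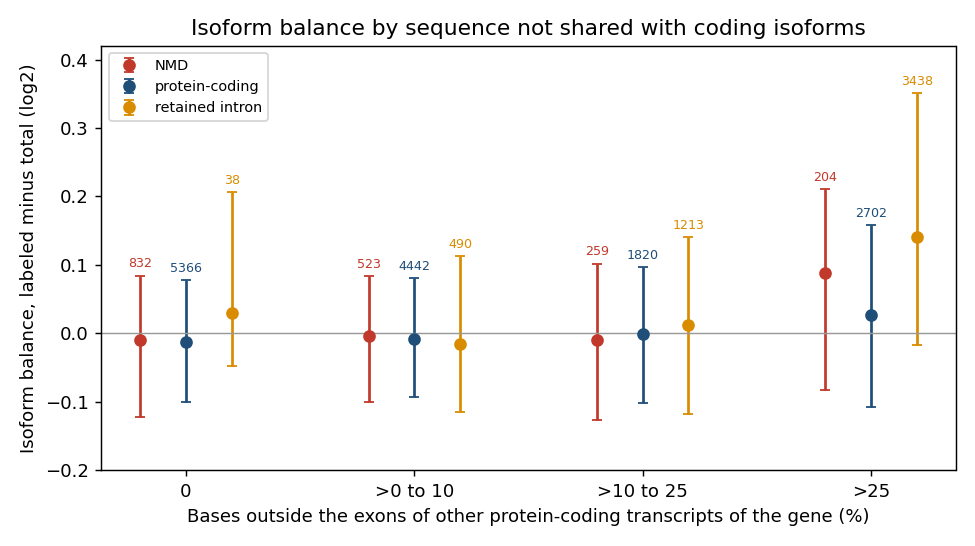
Isoform balance, labeled minus total RNA on the log2 scale (y axis), by the percentage of a transcript's bases outside the exons of other protein-coding transcripts of its gene (x axis), for NMD, protein-coding and retained_intron transcripts. Points are medians, bars run from the first to the third quartile and the numbers are transcripts, and the NMD median is 0.09 above 25% and between -0.01 and 0.00 in the other classes.

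The median balance was near 0 wherever the stop codon lay. It was 0.003 for 1200 transcripts with a new stop in an exon that overlaps a protein-coding exon. For 303 with a stop in an exon without such overlap it was -0.01. It was 0.001 for 147 that share a stop codon and -0.02 for 168 without an annotated stop. By the distance from stop to last junction, it ran from -0.03 in 79 transcripts at 55 bases or less to 0.009 in 532 transcripts above 600 bases, with 0.01, -0.02 and 0.001 in the classes between. The quartiles of each class reached at least 0.06 to both sides of 0.

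Genes of RNA-binding proteins were examined by list. The hnRNP list, proteins that coat nascent RNA and regulate its splicing, had 15 tested NMD transcripts from 8 genes, of which 10 were lower in labeled RNA and 0 higher, beside 12% lower and 5.28% higher of all transcripts, with a median log2 difference of -0.57. The 10 came from 5 of the 8 genes. Of the 5 that were not called, Hnrpdl-002, Hnrpdl-003 and Hnrnph3-003 had differences above 0 (0.23, 0.28 and 0.15) and Hnrnpu-005 and Ptbp1-008 below 0 (-0.23 and -0.46), all named after their values were seen. Of 40 tested protein-coding transcripts of these genes 30 were lower, at a median of -0.57, and the difference between both sets was not tested. With the replicate block 7 of the NMD transcripts were lower, beside 6.12% of all transcripts. For isoform balance 0 of the 15 were called, at a median of 0.02, beside 0.885% of all transcripts, so that this count says nothing about the list. Hnrnpd, whose protein binds AU-rich elements and promotes mRNA decay, supplied 4 of the 10. Of these, Hnrnpd-006, Hnrnpd-010 and Hnrnpd-012 share their stop codon with the coding Hnrnpd-003 and have 2 junctions after it. Hnrnpd-003 has 1 junction after this stop, 30 bases past it. Hnrnpd-004 has another stop codon. Hnrnpd-010 ranged from 1391 to 1916 (median 1746) in total and from 962 to 1196 (median 1092) in labeled RNA, a log2 difference of -0.65 ± 0.10 (limma, adjusted p = 0.0022), without overlap. Hnrnpd-012 fell by 0.65, Hnrnpd-004 by 0.53 and Hnrnpd-006 by 0.42 on the log2 scale, the last with an adjusted p of 0.071 in limma with the replicate block.

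Ptbp1 and Rod1, an earlier symbol of Ptbp3, encode polypyrimidine tract-binding repressors of splicing. Ptbp1-017 ranged from 772 to 849 (median 798) in total and from 403 to 669 (median 458) in labeled RNA, a log2 difference of -0.74 ± 0.12 (limma, adjusted p = 0.0026). Ptbp1-012 fell by 0.93 on this scale, and its labeled libraries ranged from 181 to 410 against 372 to 521 in total RNA, with overlap. Rod1-003 fell by 1.08 and Rod1-007 by 0.96. Relative to its coding transcripts, Rod1-007 made up 9.1% to 10.5% in total and 10.6% to 12.4% in labeled RNA, which did not overlap, but its balance did not pass the test (0.23 ± 0.07, limma adjusted p = 0.12). Syncrip-005 and Hnrnpl-006 fell by 0.57 and 0.58 on the log2 scale, and with the replicate block their adjusted p was 0.051 and 0.062 in limma.

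SR proteins bind exonic enhancers and promote exon inclusion. Their list had 10 tested NMD transcripts from 6 genes, and 0 were called in either direction for level or for balance, with medians of -0.08 and 0.10. With 17.3% of all transcripts called for level and 0.885% for balance, 0 of 10 is near the background. Srsf5-006 was the most abundant, at 2757 to 5137 (median 3495) in total and 2258 to 4140 (median 3501) in labeled RNA. Srsf2-002 ranged from 3026 to 3886 in total and from 2544 to 3459 in labeled RNA, and Srsf3-002 from 2124 to 3771 and from 2078 to 3635. The groups overlapped for all of these. The largest balance in this list was that of Srsf1-002, at 0.36 ± 0.12, which did not pass (limma, adjusted p = 0.14). Srsf1-002, Srsf2-002 and Srsf3-002 are named after their values were seen.

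Factors of NMD itself and of the exon junction complex had 3 tested NMD transcripts, from Smg6, the endonuclease of the pathway, and Magohb, a core subunit of the exon junction complex. None was called in either comparison, which for 3 transcripts is near the background of 17.3% for level and 0.885% for balance. Magohb-004 ranged from 55.02 to 122 in total and from 67.9 to 113 in labeled RNA, and its percentage of the gene from 34.7% to 39.1% and from 30.6% to 34.6%, without overlap (balance -0.21 ± 0.07, limma adjusted p = 0.13). The spliceosome list had 7 tested transcripts, with 1 called lower, Sf1-012 (-0.68 ± 0.17, limma adjusted p = 0.018), and Sf1-009 higher in balance. With 12% of all transcripts called lower, 1 of 7 is near the background and is no result about the list. The median level difference of the 7 was -0.23, and 10 of 22 coding transcripts of their genes were lower, at a median of -0.42. For level Sf1-009 was at -0.26 (limma, adjusted p = 0.20), and for balance Sf1-012 was at 0.14 (limma, adjusted p = 0.54). So these 2 NMD isoforms of Sf1 went the same way in each comparison and passed in different ones. The difference between them was not tested. Of 28 NMD transcripts of other splicing regulators, Srrm1-009 was the 1 called lower (-0.61 ± 0.17) and 0 were higher, beside 12% and 5.28% of all transcripts. For balance 0 of the 28 were called, beside 0.885% of all transcripts, with a median of 0.06. These counts were not tested against those shares and are no result about the list. The median level difference of the 28 was 0.10. Of 61 coding transcripts of their genes 9 were lower, at a median of -0.08, and this coding count is near the 12% of all transcripts. Of the 8 NMD transcripts of ribosomal protein genes 0 were called for level or for balance, beside 17.3% and 0.885% of all transcripts. This is near the background and is no result about the list. Their median was 0.15 for level, against 0.17 for 22 coding ones. Sf1-012 and Srrm1-009 are named after their values were seen. Level calls with the replicate block came to 0 of 7 in the spliceosome list and 0 of 28 in the other regulator list, beside 3.70% higher and 6.12% lower of all transcripts.

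The 6 most abundant NMD transcripts by total RNA came from 5 genes. H2afz-008, of the histone variant H2A.Z, ranged from 13459 to 22544 (median 15679) in total and from 10897 to 18359 (median 14158) in labeled RNA. It made up 33.2% to 35.1% of the gene in total and 34.7% to 35.6% in labeled RNA, and neither comparison passed. Rpl10a-002, of a ribosomal protein, ranged from 7026 to 9926 and from 8215 to 10288. Nop56-013, of a core protein of box C/D snoRNPs, was higher in labeled RNA, at 7858 to 17283 (median 11298) against 6721 to 8504 (median 7239), with overlap, a log2 difference of 0.60 ± 0.17 (limma, adjusted p = 0.029, and 0.058 with the replicate block). Its balance did not pass (0.14 ± 0.11, limma adjusted p = 0.54). Sumo2-002 ranged from 5074 to 5779 in total and from 3156 to 5305 in labeled RNA, with 19.1% to 19.9% and 19.5% to 20.1% of the gene. Eef1b2-004 and Eef1b2-006, of an exchange factor of translation elongation, had medians of 5049 and 4734 in total and of 4269 and 4478 in labeled RNA. Several of these genes have near-identical copies elsewhere in the genome, so their values are uncertain where reads could be split among copies.

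A change with labeling time was tested as the interaction of RNA fraction and time, 60 against 15 min. By limma, 0 of 1836 NMD transcripts passed, beside 0% of all 45537 transcripts, and 8 NMD transcripts (0.436%) had an unadjusted p under 0.05, beside 0.883% of all transcripts. With 2 libraries in each group of RNA and time, this comparison had few libraries behind it.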

How the data were processed

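Labeled and total RNA of mESCs was measured in 12 libraries. The authors filtered out rRNA reads with STAR v2.5.0, and then used STAR and RSEM to quantify exons and introns. The submitters' processing notes name mm10, and positions here are those of GENCODE M1 on mm9. The deposited signal values were taken as length-normalized abundances per transcript, exons and introns scaled together. Values of 1 or less are missing and were taken as 0. The scaling and this limit are not given in the sources used here, read numbers are given only as averages over libraries, and no counting error was computed.

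Groups came from the sample labels. Transcripts with a mean exonic value of at least 20 were tested with R 4.3.3 and limma 3.58.1, after adding 1 and taking log2. The model had a term for labeling time and a trended prior variance, and p-values were adjusted by Benjamini-Hochberg over all transcripts tested, with a threshold of 0.05. This scale understates the change of low values. The p-values measure the spread among libraries of 1 line. Same-numbered labeled and total libraries of a time carry the same biological replicate number in the labels, and their deviations correlated at -0.089, 0.074 and -0.30 at 15, 30 and 60 min. On simulated data with 200 transcripts changed by log2 1, limma found 101 for level with 2 false calls among 45537. For balance it found 154 with 15 false calls among 25873. The simulated noise was independent for each transcript and library. It lacked deviations that transcripts of a library share, such as those with length. The numbers of false calls therefore do not carry over to the deposited values.

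The members, lists and tests were chosen with earlier results of these data known. Transcripts are named by rule: up to 8 in each direction called for balance with the same sign in 6 pairs, the 6 most abundant in total RNA, and those of the SR, hnRNP and NMD factor lists that were called or most abundant. Other names are marked as chosen after their values were seen. Settings varied were the pseudocount, the filter, the replicate block, the reference transcripts, the scaling, each time alone and left-out libraries. Within-gene medians, rates and percentages have no test. The remaining steps were run with pandas 2.3.3 and numpy 2.4.6 under Python 3.11.15.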

Additional observations from a re-analysis of the deposited data

Results flagged for a closer look

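In 73 groups of 6 values (the 33 named transcripts in labeled and in total RNA, the NMD percentages and the within-gene medians), 2 held a value far from the other 5, and chance gives about 1 in 20 groups. The lowest labeled library of Hnrnpd-012 was at 744, and the highest total library of Phf23-003 was at 147.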

How the results depend on the processing

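Level calls among NMD transcripts numbered 298 of 1836 tested (16.2%, beside 17.3% of all transcripts). They numbered 196 of 739 with a filter of 100, where fewer transcripts were tested and the share called was higher (26.5%, beside 26.7%), 142 with the time and replicate block (7.73%, beside 9.82%), 119 at 30 min alone (6.48%, beside 8.41%) and 0 at 15 or 60 min alone (beside 0.105% and 0%; 87 and 45, or 4.74% and 2.45%, had an unadjusted p under 0.05, beside 6.76% and 3.79%). Balance calls numbered 19 of 1818 (1.05%, beside 0.885%). They numbered 42 with a pseudocount of 20 (2.31%, beside 2.39%), 7 of 2556 with a filter of 5 (0.274%, beside 0.333%), 11 of 718 with a filter of 100 (1.53%, beside 1.27%), 1 with the time and replicate block (0.055%, beside 0.0541%), and 0 at 15, 30 or 60 min alone, as among all transcripts. Added after seeing the data, time and replicate as separate terms of the block gave 5 balance calls (0.275%, beside 0.329%), and crossed numbers at 60 min gave 14 balance calls (0.770%, beside 0.564%) and 323 level calls (17.6%, beside 20.1%). Level calls ranged from 0 to 396 and balance calls from 0 to 35 with 1 replicate or library left out, and the share of all transcripts called moved with them, from 0% to 22.9% and from 0% to 2.20%. The lowest were 0 without either replicate, when 3 libraries remain per RNA. With single libraries out, level calls moved by over 1.5 times only without labeled 30 min replicate 1 (180) or 2 (177), total 15 min replicate 1 (182), total 30 min replicate 1 (198) or 2 (167), or total 60 min replicate 2 (191), at 9.10% to 10.8% of NMD and 10.4% to 12.03% of all transcripts. For balance this held for every library but labeled 60 min replicate 2 (18), with 12 calls without labeled 60 min replicate 1 (0.660%, beside 0.603%) and 2 or fewer otherwise (beside 0.0232% to 0.197%), besides the 35 without labeled 15 min replicate 2 (1.93%, beside 2.20%).

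The within-gene exonic difference moved from 0.003 to 0.012 and the intronic one from -0.014 to -0.053 with a pseudocount of 20. The rate ratio was 1.02, and 1.00 at 30 or at 60 min alone and 1.05 against the most abundant protein-coding transcript. The median NMD percentage in total RNA was 33.0%, and 31.0% with a filter of 5, 34.7% with a filter of 100 and 22.3% over all transcripts of the gene. Level differences turned positive for Eef1b2-006 at 60 min alone (0.0024) and with 1 replicate or library out (-0.16 to 0.018), for Srsf5-006 at 30 min alone (0.19) and with 1 out (-0.19 to 0.038), and for Magohb-004 with 1 out (-0.50 to 0.24), and none of these 3 transcripts was called. The cause of these changes was not tested, other than the fewer libraries or transcripts in the fits that leave some out. Since the depth of each library and the reads behind each value are not given in the sources used here, no counting error was computed for low values such as those of Pqlc3-002. The replicate block changed the calls of the named transcripts as stated with them.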
